A study of Mus musculus with 2 samples.

Results

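The genes described here encode the classical families of amino acid transporters, the solute carrier families Slc1, Slc3, Slc6, Slc7, Slc36, Slc38 and Slc43. They were taken by a pattern in the gene symbol that uses no measured value, and came to 59 of the 23284 gene symbols in the files. Both groups are cultured mouse melanoma cells of the C57BL/6 strain. B16/BL6, an invasive subline of B16, was grown in RPMI medium, and B16, its parental line, was grown in DMEM, each with fetal bovine serum and penicillin with streptomycin. With 1 RNA sequencing library per line, values carry no replicate error and differences could not be tested. For every gene below, line and medium cannot be told apart. The study searched for genes related to metastasis.

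Amino acids cross the plasma membrane and leave the lysosome through carriers of these families. Some exchange one amino acid for another, some use the sodium or proton gradient, and some let amino acids down their own gradient. The Slc7 light chains are exchangers that reach the cell surface bound to a heavy chain of the Slc3 family. Leucine and arginine supplied by these carriers feed the mTORC1 growth pathway, cystine feeds glutathione synthesis, and in pigment cells tyrosine is the starting material of melanin. The standard formulas of the culture media differ in amino acids: RPMI contains proline, asparagine, aspartate, glutamate and glutathione, which the standard DMEM formula lacks.

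All 8 melanocyte lineage markers checked were present in both lines, the lowest being Mc1r at 50.4 FPKM in B16/BL6 and Tyr at 10.6 FPKM in B16. By 2-fold, 2 of the 8 were higher in B16/BL6, namely Tyr (164 FPKM in B16/BL6 and 10.6 FPKM in B16) and Pmel (4651 FPKM in B16/BL6 and 2166 FPKM in B16), and 0 were lower. Among all genes that reached 1 FPKM, 3.31% were higher and 3.16% lower by 2-fold. FPKM counts fragments relative to transcript length and library depth, so levels of different genes can be set side by side. Of 14 markers of fibroblasts, leukocytes, endothelium, epithelium and neurons, Cd68 alone reached 1 FPKM, at 1.23 FPKM in B16/BL6 and 2.83 FPKM in B16. The defining fibroblast genes Col3a1, Dcn and Lum, the epithelial gene Epcam and the neuronal genes Rbfox3 and Snap25 were listed at 0 in both libraries. Among the lowest values, 155 of 379 genes shared, within 0.5%, a B16/BL6 over B16 ratio of 0.906. If these genes had equal fragment numbers, the B16/BL6 library was 1.10 times as deep as the B16 library. The absolute depth is unknown.

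Of the 59 transporter genes, 24 reached 1 FPKM in at least 1 library, 14 were above 0 but below 1 FPKM, and 21 were listed at 0 in both. Of all 23284 symbols, 10709 reached 1 FPKM and 13933 were above 0 in at least 1 library. Differences are given on the log2(FPKM + 1) scale, as B16/BL6 minus B16, which is a scale that understates the change of low genes, and a gene was counted as different at 2-fold on that scale. Slc7a8 alone passed 2-fold upward in B16/BL6, while Slc6a9, Slc6a15 and Slc6a17 were at least 2-fold lower. That is 1 of 24 genes higher and 3 of 24 lower (4.17% and 12.5%), beside 3.31% higher and 3.16% lower among all 10709 genes that reached 1 FPKM. The higher count is close to the share among all genes, and the lower count is 3 genes. The other 20 members lay within 2-fold, 18 of them within 1.5-fold. The median difference of the 24 was 0.00, beside 0.01 for all genes, with 12 members above 0 and 12 below.

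**Figure D1:**
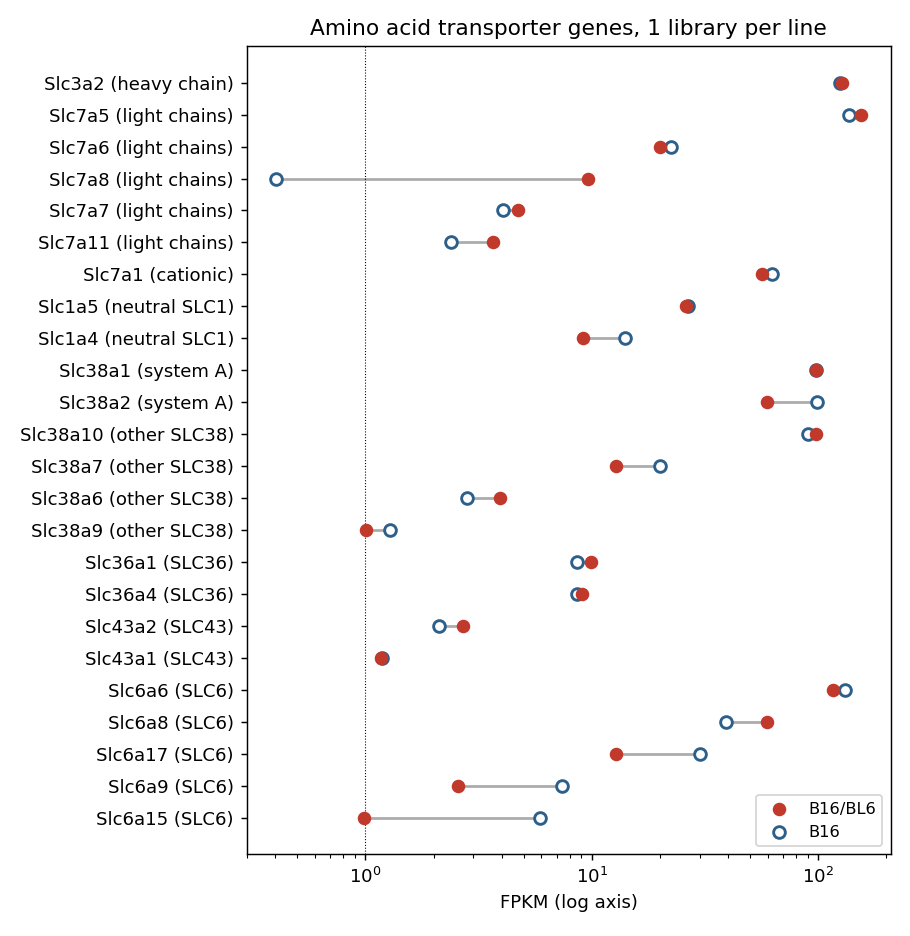
Level of each of the 24 transporter genes that reached 1 FPKM in either library, with FPKM on a log axis. Filled points are B16/BL6, open points are B16 and the dotted line marks 1 FPKM. Most pairs nearly coincide, and the pairs farthest apart are those of Slc7a8, at 9.59 and 0.402 FPKM, and Slc6a15, at 0.983 and 5.89 FPKM.

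The same genes led the repertoire in both lines. The 59 genes summed to 902 FPKM in B16/BL6 and 942 FPKM in B16, a ratio of 0.957. Because the FPKM sums of the libraries differed, at 563451 and 500485, these sums were 0.160% of the B16/BL6 library and 0.188% of the B16 library. The same 12 genes held the highest 12 places in both, led by Slc7a5. In B16/BL6 the order after Slc7a5 was Slc3a2, Slc6a6, Slc38a10, Slc38a1, Slc6a8, Slc38a2 and Slc7a1. In B16 it was Slc6a6, Slc3a2, Slc38a2, Slc38a1, Slc38a10, Slc7a1 and Slc6a8. By role, the Slc7 light chains summed to 193 FPKM in B16/BL6 and 167 FPKM in B16, and the Slc6 members to 193 FPKM in B16/BL6 and 214 FPKM in B16. The Slc38 carriers of systems A and N summed to 157 FPKM in B16/BL6 and 197 FPKM in B16, the lowest ratio of the expressed roles, 0.800. Without replicates, neighbours in either order cannot be separated. Slc38a2 was in place 7 in B16/BL6 and place 4 in B16.

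The promoter sequences of the members with the clearest differences are shown here, from RefSeq's GRCm38.p6 annotation, the assembly that the mm10 build names. Each window runs from 250 bases before the transcription start to 50 after it, 5′ to 3′ on the gene's strand. Promoters of 18 of the 24 expressed members, and 41 of all 59, were found in the sequence table, and Slc6a15 and Slc7a5 were not among them. The windows were searched on both strands for TGATGNAA, the core of the C/EBP-ATF element that ATF4 binds, and for TGACNNNGC, the core of the antioxidant response element that Nrf2 binds. Matches are in capitals, and no match overlapped another. The Slc7a8 window is chr14:54781837-54782136 on the minus strand, shown for the member that was higher in B16/BL6. The outer Slc6a17 window is chr3:107517969-107518268 on the minus strand, and the Slc6a9 windows are those of a pair of its alternative starts, at chr4:117849100-117849399 and chr4:117855297-117855596 on the plus strand, shown for members that were lower in B16/BL6. The Slc7a11 window is chr3:50443564-50443863 on the minus strand, shown because it holds a pair of C/EBP-ATF matches.
Slc7a8: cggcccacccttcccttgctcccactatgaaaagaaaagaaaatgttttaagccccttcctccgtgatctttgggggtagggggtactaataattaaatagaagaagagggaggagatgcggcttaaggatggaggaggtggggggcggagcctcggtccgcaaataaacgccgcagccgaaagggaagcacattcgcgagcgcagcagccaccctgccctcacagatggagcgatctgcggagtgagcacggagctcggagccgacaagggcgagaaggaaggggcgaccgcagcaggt
Slc6a17 outer start: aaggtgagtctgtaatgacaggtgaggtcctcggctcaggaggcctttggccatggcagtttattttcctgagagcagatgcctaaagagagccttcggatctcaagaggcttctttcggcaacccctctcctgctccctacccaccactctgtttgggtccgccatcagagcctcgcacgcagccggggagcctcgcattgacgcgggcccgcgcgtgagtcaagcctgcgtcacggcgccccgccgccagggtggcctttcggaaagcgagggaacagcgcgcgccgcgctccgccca
Slc6a9 middle start: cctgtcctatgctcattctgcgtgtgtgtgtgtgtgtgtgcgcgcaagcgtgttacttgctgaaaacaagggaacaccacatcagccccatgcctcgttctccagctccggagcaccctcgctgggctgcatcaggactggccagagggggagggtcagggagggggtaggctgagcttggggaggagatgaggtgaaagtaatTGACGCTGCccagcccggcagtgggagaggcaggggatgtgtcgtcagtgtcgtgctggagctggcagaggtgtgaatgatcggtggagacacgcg
Slc6a9 inner start: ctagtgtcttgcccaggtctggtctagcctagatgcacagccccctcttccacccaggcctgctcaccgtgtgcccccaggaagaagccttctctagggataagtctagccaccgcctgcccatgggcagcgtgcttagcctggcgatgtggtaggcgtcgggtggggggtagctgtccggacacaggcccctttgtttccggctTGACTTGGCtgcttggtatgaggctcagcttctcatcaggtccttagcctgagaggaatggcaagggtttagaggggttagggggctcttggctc
Slc7a11: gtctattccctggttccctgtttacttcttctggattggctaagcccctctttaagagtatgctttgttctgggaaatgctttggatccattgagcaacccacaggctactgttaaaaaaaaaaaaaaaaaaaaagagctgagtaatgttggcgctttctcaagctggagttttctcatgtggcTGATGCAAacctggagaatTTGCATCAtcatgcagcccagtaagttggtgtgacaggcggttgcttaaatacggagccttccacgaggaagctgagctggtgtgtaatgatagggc

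Neither motif was found in the Slc7a8 window or in the Slc6a17 windows. The Slc6a9 windows held TGACGCTGC at 46 bases before the middle start and TGACTTGGC at 45 bases before the inner start, and the window of its outer start, chr4:117835008-117835307, held neither motif. The Slc7a11 window held TGATGCAA at 66 bases before the start and, on the other strand, TTGCATCA at 47 bases before it. A C/EBP-ATF match was found for 3 of 18 expressed members (16.7%), namely Slc7a11, Slc1a4 and Slc7a7, beside 4.51% of the 27025 genes in the table. An antioxidant response core was found for 6 of 18 (33.3%), namely Slc6a9, Slc7a1, Slc7a6, Slc36a1, Slc38a2 and Slc43a1, beside 13.99% of all genes. A gene with several annotated starts has more windows and so more chances of a match. The 18 members had 28 windows, and the 27025 genes had 32851. By window, 4 of 28 held a C/EBP-ATF match and 8 of 28 an antioxidant response core, beside 3.97% and 12.4% of all windows. Some windows of the same gene overlap, and the genes in the table include ones not expressed here. The genes with a C/EBP-ATF match differed in direction: Slc7a11 and Slc7a7 had log2 differences of 0.46 and 0.18, and Slc1a4 one of -0.56. Among those with an antioxidant response core, Slc36a1 had one of 0.19, and the others had ones from -1.24 (Slc6a9) to -0.004 (Slc43a1). Whether any matched site acts in these cells was not tested.

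Among the heterodimeric exchangers, the gene of the light chain LAT2, Slc7a8, stood apart. The gene of its heavy chain, Slc3a2, and that of the most abundant light chain, Slc7a5, differed little. LAT2 exchanges large and small neutral amino acids across the membrane. Slc7a8 (chromosome 14, 54722215 to 54781886, in GRCm38 coordinates) was at 9.59 FPKM in B16/BL6 and 0.402 FPKM in B16. That is a ratio of 23.8 and a log2 difference of 2.92, and it moved the gene to rank 6586 of the 10709 genes in B16/BL6, against rank 10575 in B16. The B16 value is below 1 FPKM, so the size of the ratio is uncertain. With pseudocounts of 5 and 0.1, the log2 difference was 1.43 and 4.27. The 10 nearest genes that reached 1 FPKM, 5 on each side, did not share a difference of this size. The closest were 1700123O20Rik (25.97 FPKM in B16/BL6 and 17.7 FPKM in B16) and Homez (3.13 FPKM in B16/BL6 and 2.25 FPKM in B16). Of the 10, the microRNA symbol Mir686, whose FPKM is poorly estimated because the feature is short, and Cmtm5 passed 2-fold upward, with log2 differences of 1.18 and 1.09.

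The heavy chain gene Slc3a2, which encodes CD98, was at 127 FPKM in B16/BL6 and 126 FPKM in B16. The light chain gene Slc7a5, for the large neutral amino acid exchanger LAT1 that imports leucine and tyrosine, was the most abundant member, at 155 FPKM in B16/BL6 and 138 FPKM in B16. These main subunits thus stood close to each other in level and differed little between the lines. Slc7a6, for y+LAT2, which exports arginine in exchange for neutral amino acids, was at 19.9 FPKM in B16/BL6 and 22.5 FPKM in B16. Slc7a7, for the related y+LAT1, lies on the same chromosome as Slc7a8 and was at 4.71 FPKM in B16/BL6 and 4.04 FPKM in B16. Slc7a7 overlaps Oxa1l (36.9 FPKM in B16/BL6 and 28.1 FPKM in B16), and no source used here says how fragments of the shared stretch were assigned. Slc7a11, the gene of xCT, which takes up cystine in exchange for glutamate and whose loss in mice alters coat pigment, was at 3.66 FPKM in B16/BL6 and 2.39 FPKM in B16, a ratio of 1.53.

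The 6 light chains that pair with the Slc3a2 product, Slc7a10 included, summed to 193 FPKM in B16/BL6 and 167 FPKM in B16. Slc7a5 made up 80.4% of that sum in B16/BL6 and 82.4% in B16. The share of Slc7a8 was 4.96% in B16/BL6 and 0.241% in B16, so it passed Slc7a7 and Slc7a11 in B16/BL6 and stood below both in B16. Without Slc7a5, the other 5 summed to 37.9 FPKM in B16/BL6 and 29.3 FPKM in B16. The sum of all 6 divided by the Slc3a2 level was 1.52 in B16/BL6 and 1.33 in B16. The second heavy chain gene, Slc3a1, which encodes rBAT of kidney and intestine, was listed at 0 in both lines, and its partner Slc7a9 was at 0.220 FPKM in B16/BL6 and 0 in B16.

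**Figure D2:**
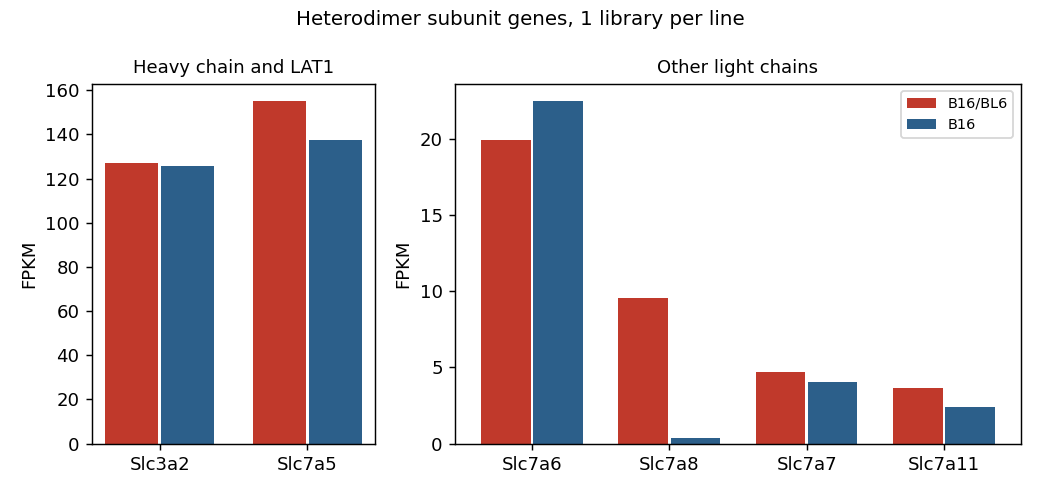
FPKM of the heavy chain gene Slc3a2 and of the expressed light chain genes, with bars for B16/BL6 on the left of each pair and B16 on the right. The panels have different scales. The Slc7a8 bars, at 9.59 FPKM in B16/BL6 and 0.402 FPKM in B16, are far apart, while those of Slc3a2, at 127 and 126 FPKM, are level.

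The members at least 2-fold lower all belonged to Slc6, the family of sodium-coupled and mostly chloride-dependent carriers that includes the neurotransmitter transporters. Of its 17 members that the symbol pattern takes, 5 reached 1 FPKM. At least 2-fold lower in B16/BL6 were 3 of these 5, beside 3.16% of all genes. The 5 are too few to describe the family. Slc6a20a and Slc6a20b, which the pattern misses, were listed at 0 in both lines. Slc6a15 (chromosome 10, 103367808 to 103419379) encodes a carrier of branched-chain amino acids and proline that is best known from the brain. It was at 0.983 FPKM in B16/BL6 and 5.89 FPKM in B16, a log2 difference of -1.80, with B16 5.99 times as high. Chromosome 10 had the highest median of all chromosomes, 0.41, and the expressed genes on either side, Alx1 and Ccdc59, had log2 differences of 0.54 and 0.46. Relative to its chromosome, the Slc6a15 difference was -2.21.

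Slc6a17 (chromosome 3, 107467548 to 107518018) encodes a carrier of neutral amino acids found on synaptic vesicles of neurons. It was at 12.9 FPKM in B16/BL6 and 30.2 FPKM in B16, a log2 difference of -1.17. Of these 3 genes it had the highest level, and in B16 it stood above the glutamine exchanger gene Slc1a5. The nearest expressed neighbours, Rbm15 and Fam40a, had log2 differences of -0.05 and -0.34.

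Slc6a9 (chromosome 4, 117835258 to 117869305) encodes the glycine transporter GlyT1. It was at 2.57 FPKM in B16/BL6 and 7.42 FPKM in B16, a log2 difference of -1.24. The next genes on the chromosome, named after their values were seen, were also lower in B16/BL6. Ccdc24, which overlaps the end of Slc6a9, was listed at 0 in B16/BL6 and at 1.52 FPKM in B16, and B4galt2, a galactosyltransferase gene, was at 0.0369 FPKM in B16/BL6 and 7.49 FPKM in B16. Beyond these, Atp6v0b (286 FPKM in B16/BL6 and 244 FPKM in B16) and, on the other side, Dmap1 (14.8 FPKM in B16/BL6 and 13.5 FPKM in B16) did not share the difference. The part of overlapping transcription in the Slc6a9 value was not tested.

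The other expressed Slc6 members were the abundant ones. Slc6a6, the taurine transporter gene, was at 117 FPKM in B16/BL6 and 132 FPKM in B16. Slc6a8, the creatine transporter gene, was at 59.5 FPKM in B16/BL6 and 39.4 FPKM in B16, a ratio of 1.51 and a log2 difference of 0.58. It is the one expressed Slc6 gene that was higher in B16/BL6, and its share of the family sum was 30.9% in B16/BL6 and 18.4% in B16. The genes of the dopamine, noradrenaline and serotonin transporters, Slc6a3, Slc6a2 and Slc6a4, were listed at 0 in both lines.

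**Figure D3:**
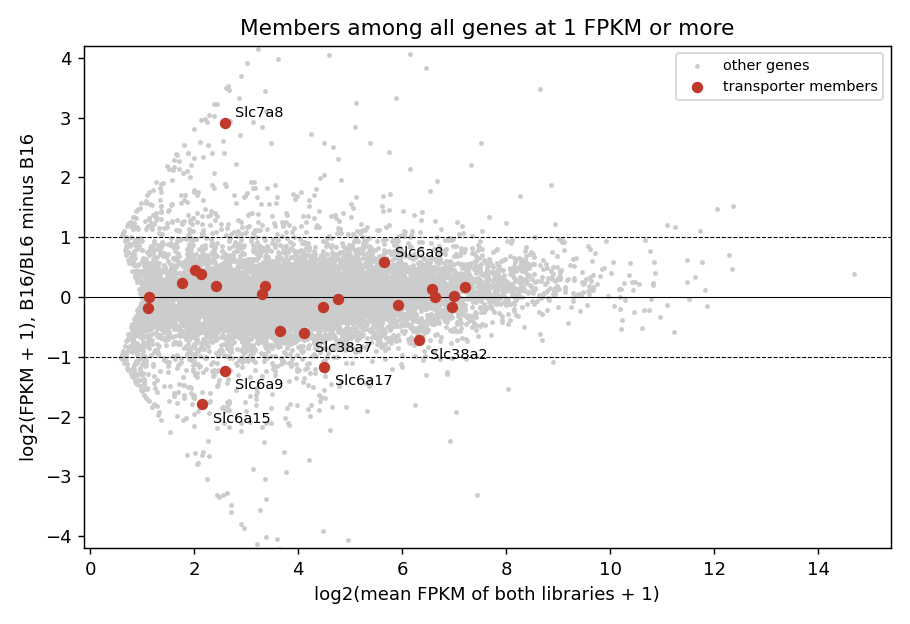
Difference between the lines against mean level for all 10709 genes that reached 1 FPKM (grey) and the 24 transporter members (red). Dashed lines mark 2-fold, and 31 genes, none of them members, lie beyond the axis. Slc7a8 lies above the upper line, Slc6a9, Slc6a15 and Slc6a17 lie below the lower line, and the others lie between.

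In the Slc38 family, the members with the largest differences were lower in B16/BL6 but within 2-fold. Slc38a2 encodes SNAT2, a sodium-coupled carrier of small neutral amino acids that cells make in greater amounts when amino acids are scarce. It was at 59.5 FPKM in B16/BL6 and 99.0 FPKM in B16, a log2 difference of -0.73. Its neighbour on chromosome 15, Slc38a1, which encodes the related SNAT1, was at 97.8 FPKM in B16/BL6 and 97.5 FPKM in B16, and the third gene of the cluster, Slc38a4, was listed at 0 in both. Slc38a2 thus made up 37.8% of the FPKM of these system A genes in B16/BL6 and 50.4% in B16. Slc38a7, for a carrier that releases glutamine and asparagine from lysosomes, was at 12.8 FPKM in B16/BL6 and 19.98 FPKM in B16, a log2 difference of -0.61. On the log2(FPKM + 1) scale, Slc38a2 and Slc38a7 were the members between 1.5-fold and 2-fold. Of all genes, 8.56% were at least 1.5-fold lower and 9.38% at least 1.5-fold higher. With them, 5 of the 24 members were at least 1.5-fold lower and 1 higher on that scale. By the plain FPKM ratio, Slc1a4 was also past 1.5-fold, with B16 1.53 times as high. So were Slc7a11 and Slc6a8, with B16/BL6 1.53 and 1.51 times as high.

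The remaining Slc38 genes differed less. Slc38a10, whose product is little characterised, was at 98.4 FPKM in B16/BL6 and 90.0 FPKM in B16. Slc38a9, for the lysosomal arginine sensor of mTORC1, was close to the minimum at 1.01 FPKM in B16/BL6 and 1.29 FPKM in B16. Slc38a6 was at 3.94 FPKM in B16/BL6 and 2.80 FPKM in B16. Slc38a6 overlaps Trmt5 (13.9 FPKM in B16/BL6 and 14.01 FPKM in B16), and no source used here says whether the counting used strand.

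Among the sodium-dependent exchangers of neutral amino acids and the cationic carriers, Slc1a4 had the largest difference and was lower in B16/BL6, within 2-fold. Slc1a5, for the glutamine exchanger ASCT2, was at 26.0 FPKM in B16/BL6 and 26.6 FPKM in B16. Slc1a4, for ASCT1, which carries alanine, serine, cysteine and threonine, was at 9.18 FPKM in B16/BL6 and 14.1 FPKM in B16, a log2 difference of -0.56. Slc7a1, for the arginine and lysine importer CAT1, was at 56.7 FPKM in B16/BL6 and 62.4 FPKM in B16. The other cationic carriers of Slc7 and the acidic carriers of Slc1 were all below 1 FPKM. Of the 5 acidic carriers, which take up glutamate and aspartate, Slc1a1 alone was above 0, at 0.0234 FPKM in B16/BL6.

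The proton-coupled carriers and the facilitators also differed little. Slc36a1, for PAT1, a proton-coupled carrier at the lysosome and the plasma membrane, was at 9.96 FPKM in B16/BL6 and 8.63 FPKM in B16. Slc36a4 was at 9.02 FPKM in B16/BL6 and 8.64 FPKM in B16. Slc43a1 and Slc43a2, for the facilitators LAT3 and LAT4 of branched-chain and other large neutral amino acids, were low. Slc43a1 was at 1.18 FPKM in both lines, and Slc43a2 was at 2.69 FPKM in B16/BL6 and 2.11 FPKM in B16.

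Among the 35 members below 1 FPKM in both lines, the highest was Slc7a4, at 0.353 FPKM in B16/BL6 and 0.509 FPKM in B16. Slc36a3 was at 0.0529 FPKM in B16/BL6 and 0.117 FPKM in B16, which by the step of single fragments is a fragment number 0.50 times as large in B16/BL6 as in B16. A further 8 members were above 0 in B16/BL6 and listed at 0 in B16, from 0.0234 to 0.220 FPKM. Of these, 6 belong to Slc1 or Slc7, families of 7 and 15 members (Slc1a1, Slc7a9, Slc7a10, Slc7a13, Slc7a14 and Slc7a15). Conversely, 4 were listed at 0 in B16/BL6 and lay above 0 in B16, from 0.0378 to 0.243 FPKM (Slc7a3, Slc38a3, Slc38a8 and Slc43a3). These values rest on few fragments, and no ratio is given for them. The matching counts over all genes were not made, so the 8 and 4 are not read as a difference between the lines.

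Transporter genes that the factor ATF4 is known to drive did not move together. ATF4 is the transcription factor of the amino acid starvation response. Of 10 such genes among the members, 9 reached 1 FPKM. By 2-fold, 0 of these were higher in B16/BL6 and 1 was lower, Slc6a9, beside 3.31% and 3.16% of all genes. Of the 9, 6 were below 0, with a median of -0.03, beside 5294 of 10709 genes below 0. The 15 expressed members outside that list had a median of 0.06, with 1 higher and 2 lower. Slc6a9, Slc38a2 and Slc1a4 had log2 differences from -1.24 to -0.56, Slc7a11 and Slc7a5 had ones of 0.46 and 0.17, Slc7a1 had one of -0.14, and Slc3a2, Slc1a5 and Slc43a1 had ones from -0.03 to 0.02. In the list of transcription factors, 1 of 11 was lower by 2-fold and 0 were higher, beside the same shares of all genes. The 11 had a median of -0.27. The members of that list with the largest differences were Atf3 (1.25 FPKM in B16/BL6 and 8.71 FPKM in B16), Nfe2l1 (34.7 FPKM in B16/BL6 and 61.9 FPKM in B16), the C/EBP gene Cebpg (7.18 FPKM in B16/BL6 and 10.4 FPKM in B16) and the growth factor-responsive Myc (96.6 FPKM in B16/BL6 and 70.7 FPKM in B16). Atf4 itself was at 195 FPKM in B16/BL6 and 224 FPKM in B16.

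Genes that use or make the transported amino acids were within 2-fold, in both directions. Of 29 expressed enzymes of amino acid synthesis and breakdown, 0 were higher by 2-fold and 0 lower, beside 3.31% and 3.16% of all genes. Their median was 0.00. Asns, the asparagine synthetase gene, was at 90.2 FPKM in B16/BL6 and 154 FPKM in B16. Phgdh, for the first enzyme of serine synthesis, was at 74.9 FPKM in B16/BL6 and 43.95 FPKM in B16. The arginine synthesis genes differed in opposite directions: Ass1 was at 15.5 FPKM in B16/BL6 and 8.78 FPKM in B16, and Asl at 23.9 FPKM in B16/BL6 and 38.9 FPKM in B16. Of 10 expressed amino acid carriers outside the families, 0 passed 2-fold in either direction and the median was 0.17. The mitochondrial glutamate carrier gene Slc25a22 was at 3.69 FPKM in B16/BL6 and 7.09 FPKM in B16, and the lysosomal cationic amino acid exporter gene Pqlc2 at 9.55 FPKM in B16/BL6 and 6.70 FPKM in B16. The carrier genes Slc25a12, for mitochondrial aspartate and glutamate, and Slc25a29, for mitochondrial basic amino acids, had log2 differences of -0.36 and 0.21.

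Of 23 genes of amino acid sensing at the lysosome, 0 passed 2-fold in either direction, beside 3.31% higher and 3.16% lower among all genes. Their median was -0.03. The one with the largest difference was Sesn3, a sestrin gene, at 22.7 FPKM in B16/BL6 and 11.7 FPKM in B16. Lamtor3, for a subunit of the Ragulator scaffold, was at 26.7 FPKM in B16/BL6 and 16.7 FPKM in B16. The GTPase gene Rragb and the folliculin gene Flcn had log2 differences of -0.56 and 0.53.

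The cystine that xCT imports feeds glutathione synthesis. In the list of genes of glutathione synthesis and use, the genes past 2-fold on the log2(FPKM + 1) scale, Ggt1 and Chac1, encode enzymes that break glutathione down. The genes of synthesis itself were within 2-fold. Of 7 expressed genes, 1 was higher in B16/BL6 by 2-fold and 1 lower, beside 3.31% and 3.16% of all genes. Their median was 0.55, with 6 of 7 above 0, beside 0.01 and 5415 of 10709 for all genes. Ggt1, for the surface enzyme that breaks down glutathione outside the cell, was at 7.65 FPKM in B16/BL6 and 0.0499 FPKM in B16. That B16 value is near 0, so the size of the difference is uncertain. Gclm, for a subunit of the first enzyme of glutathione synthesis, was at 49.9 FPKM in B16/BL6 and 27.1 FPKM in B16. Ggct, for γ-glutamylcyclotransferase, was at 11.1 FPKM in B16/BL6 and 5.42 FPKM in B16. Its plain FPKM ratio, 2.05, was past 2-fold, but its log2 difference was 0.915. Chac1, which degrades glutathione inside the cell, was lower, at 7.35 FPKM in B16/BL6 and 16.4 FPKM in B16. Each of these 4 genes differed more than Slc7a11, whose log2 difference was 0.46.

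**Figure D4:**
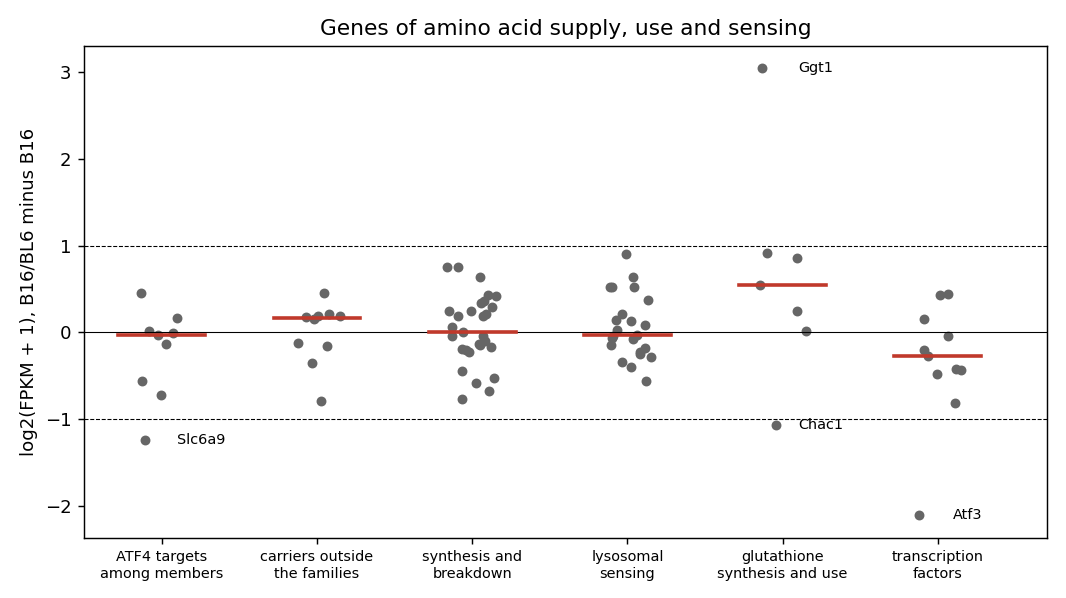
Difference of each expressed gene, B16/BL6 minus B16 on the log2(FPKM + 1) scale, for lists of genes of amino acid supply, use and sensing. Points are genes, red bars are list medians and dashed lines mark 2-fold. Most points lie between the dashed lines, and Ggt1, Chac1, Atf3 and Slc6a9 lie outside.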

How the data were processed

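RNA from cultured B16/BL6 and B16 cells was made into libraries with a stranded mRNA kit, per the labels' protocols. The authors deposited FPKM per gene symbol, per the file headers. The mm10 build, Cufflinks 2.2.1, TopHat2 2.0.13, SAMtools 0.1.19 and Bowtie2 2.2.3 are named in the submitters' processing notes. The annotation and the counting options were not given in the sources used here.

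With FPKM and 1 library per line, no test was run. Differences used a pseudocount of 1, a minimum of 1 FPKM in either library, and 2-fold. Every member at that minimum is named, and up to 4 genes of each other list, by largest difference. The members and lists were chosen with earlier results of these data known. Atf4, a few neighbouring genes and markers at 0 were named after their values were seen. Positions came from RefSeq GRCm38.p6. The counting past 2-fold was checked on simulated data with planted shifts and no noise, which does not test how noise affects the counts. Python 3.11.15, pandas 2.3.3, numpy 2.4.6 and matplotlib 3.10.9 were used. One member is not reported here by name.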

Additional observations from a re-analysis of the deposited data

How the results depend on the processing

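Slc7a8 passed 2-fold upward under each of the 7 alternatives tried, with log2 differences from 1.43 to 4.27. Of these alternatives, no minimum and a minimum of 5 FPKM change only which genes are counted. They cannot change the difference of a single gene. Slc6a9, Slc6a15 and Slc6a17 were at least 2-fold lower under all but a pseudocount of 5, which by construction shrinks differences of low genes and left 0 members lower, with differences of -0.71, -0.86 and -0.98. At 1.5-fold, 5 members were lower. The TPM scale (each library rescaled to sum to 1000000) moved the median of all genes by -0.16, to -0.16, and that of the members to -0.17, so the members did not move relative to all genes. On that scale Slc3a2, Slc36a4, Slc38a1 and Slc38a10 turned below 0, as Slc3a2 and Slc38a1 did after upper-quartile scaling, and with each chromosome centred Slc38a9 and Slc43a1 turned above 0. All of these were within 0.19 of 0. The share of all genes at least 2-fold lower was 5.18% on the TPM scale, with 3.28% higher. Leaving out a replicate was not possible with 1 library per line. No paired analysis was possible because each line has 1 library and no replicate number pairs them. Slc1a4 was within 1.5-fold as reported, but beyond it with a pseudocount of 0.1 (-0.61), after upper-quartile scaling (-0.61) and on the TPM scale (-0.75). Upward, Slc7a11 (0.594) and Slc6a8 (0.595) also passed 1.5-fold with a pseudocount of 0.1. Slc38a7 was within 1.5-fold with a pseudocount of 5 (-0.492). The absolute depth is unknown, and values listed at 0 can be failed estimates.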
